A study of Mus musculus with 16 samples.

Results

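Of the 51912 genes in the count table, 10 are described here: the metabolic nuclear receptors *Ppara*, *Ppard*, *Esrra*, *Esrrb*, *Esrrg*, *Rxra*, *Thra* and *Thrb*, and the PGC1 coactivators *Ppargc1a* and *Ppargc1b*. They were chosen by name, with earlier results of these data known, and all 10 had enough counts to be tested. Total RNA of the heart ventricles of neonatal mice was sequenced in 16 libraries, 4 in each of 4 groups. WT SH were wild type C57BL/6J mice after sham surgery and WT MI were wild type mice after myocardial infarction. KO SH and KO MI were *Lrrc10*-/- mice, a whole-body knockout made in a C57BL/6 background, after the same 2 operations. Surgery was on postnatal day 1 and hearts were taken 7 days later. The 2 comparisons of genotype ask how loss of LRRC10, a cardiomyocyte protein, moves these genes with and without injury, and the 2 comparisons of surgery ask how injury moves them within a genotype.

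Nuclear receptors bind DNA and switch genes on or off, many of them in answer to a lipid or hormone. In heart muscle the PPARs drive the genes of fatty acid use, the estrogen-related receptors (ERRs) drive the genes of mitochondrial respiration without a known natural hormone, and the thyroid hormone receptors set contractile and growth genes. PPARs and thyroid hormone receptors bind DNA paired with RXR, and PGC1α and PGC1β dock on these receptors to raise transcription of mitochondrial genes, a program that comes up as the heart turns to fatty acids after birth.

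The libraries held between 33783874 and 57470159 counts, and 3 counts, taken as the floor, correspond to 0.0577 to 0.0858 CPM (the library's counts scaled by its total and edgeR's TMM factor). The totals ran from 37842114 to 57470159 in WT SH, from 37962875 to 50123038 in KO SH, from 43166794 to 46184203 in WT MI and from 33783874 to 49334247 in KO MI. *Lrrc10* had 1075 to 1850 counts in WT SH, 1247 to 1355 counts in WT MI and 0 counts in each of the 8 KO libraries. It lies on chromosome 10, which holds 0 of the 10 members.

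Some libraries stood apart before any comparison was made. KO MI replicates 2 and 7 had 74.3 and 122 CPM of summed skeletal muscle markers, led by the neonatal myosin gene *Myh8*, against 13.4 CPM or less in the other 14 libraries. *Xist*, the RNA of the inactive X chromosome of females, was at 919 to 985 CPM in 2 libraries each of KO SH, WT MI and KO MI and at 23.4 CPM or less in the rest. The labels call the groups sex-balanced, but all 4 WT SH libraries had low *Xist* and a Y-linked sum of 160 to 165 CPM. *Nnt*, which is partly deleted in C57BL/6J mice, had 51.7, 121, 102 and 87.6 CPM in WT SH and 40.1 to 54.4 CPM in KO SH (adjusted p = 0.0121, edgeR with Benjamini-Hochberg adjustment). In WT MI it was at 49.4 to 79.1 CPM and in KO MI at 31.4 to 58.5 CPM. These groups overlapped, and the log2 fold change between them, −0.51, was not called. The substrain of the knockout is not given in the sources used here.

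Compared per kb of exon sequence, the 10 genes spanned over an order of magnitude. *Ppargc1a* had 15.6 CPM per kb on average over the 16 libraries, *Thra* 13.5 and *Ppargc1b* 12.5. *Esrrg* followed at 5.67, *Rxra* at 5.21, *Esrra* at 3.1, *Ppara* at 1.91 and *Ppard* at 1.31 CPM per kb. *Esrrb* at 1.11 and *Thrb* at 1.02 CPM per kb had the lowest means over the 16 libraries. The order differed between groups: in WT MI *Esrrb* (1.64) stood above *Ppard* (1.28 CPM per kb), and *Thra* stood above *Ppargc1a* in KO SH (14.7 and 13.7) and in KO MI (12.8 and 11.7 CPM per kb). In KO SH *Rxra* (5.46) also stood above *Esrrg* (5.39), and *Esrrb* (0.526) was the lowest member, below *Thrb* (1.14 CPM per kb). The ranges of *Ppargc1a* (9.69 to 23.4), *Thra* (10.2 to 17.5) and *Ppargc1b* (11 to 14.2 CPM per kb) overlap, as do those of *Esrrg* and *Rxra*, and those of the lowest 4 genes each overlap a neighbour. The order of the first 3 depends on the length used, since per kb of the longest transcript *Thra* led with 21.8, before *Ppargc1b* with 18 and *Ppargc1a* with 16 CPM per kb. Among the ERRs the order of the means over all libraries was *Esrrg*, *Esrra*, *Esrrb* with either length, but in KO SH *Esrra* (6.32) and *Esrrg* (6.23 CPM per kb) changed places per kb of the longest transcript. In every group *Thra* stood above *Thrb*.

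**Figure D1:**
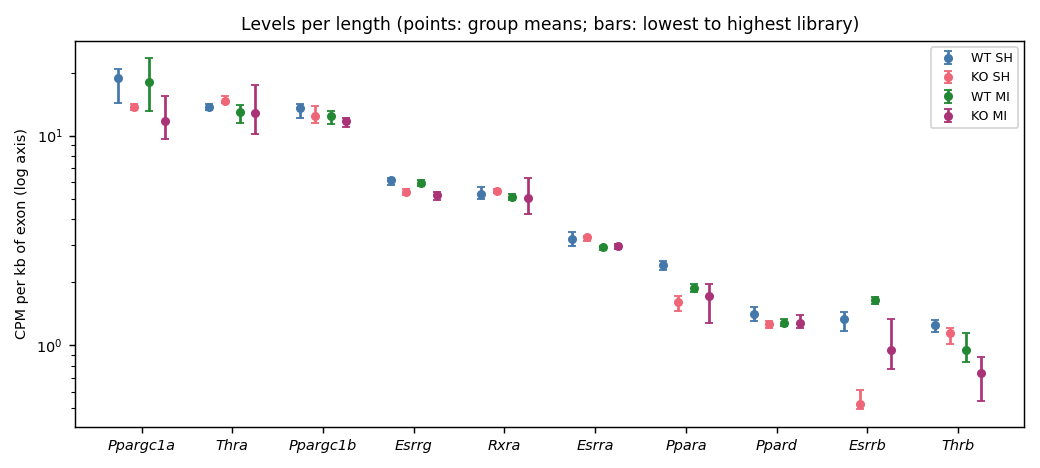
Level of each member in CPM per kb of exon (log axis), with 1 point per group at its mean over 4 libraries and bars from the lowest to the highest library. *Ppargc1a*, *Thra* and *Ppargc1b* sit at 9.69 CPM per kb or more in every library, and the KO SH point of *Esrrb* is the farthest from the other groups of its gene.

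Loss of *Lrrc10* in sham hearts went with lower RNA of 4 of the 10 members. *Esrrb*, *Ppara*, *Esrrg* and *Ppargc1a* had lower levels in KO SH at an adjusted p under 0.1, and 0 members were called higher. Over all 20159 genes tested, 12.3% were called in this comparison, 7.22% lower and 5.11% higher. *Esrrb* and *Ppara* also moved by at least 0.5 on the log2 scale, which makes them differentially expressed genes (DEGs), as were 5.01% of all genes. The median log2 fold change of the members was −0.15, beside 0.0053 for all genes. Since the members were chosen with earlier results of these data known, this contrast is a description.

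After infarction, 3 members were called in KO MI against WT MI, all lower, where 3.07% of all genes were called, 2.04% lower and 1.03% higher. They were *Esrrb*, *Ppargc1a* and *Esrrg*, the first 2 as DEGs (1.73% of all genes). Infarction in WT hearts went with 1 called member, *Ppara*, which was lower in WT MI than in WT SH (5.31% of all genes called, 2.21% lower and 3.11% higher), and 0 were DEGs (2.78% of all genes). Infarction in KO hearts went with 2 called members, *Esrrb* higher and *Thrb* lower in KO MI than in KO SH, both DEGs (17.5% of all genes called, 10.2% higher and 7.32% lower, and 7.42% DEGs). The groups did not overlap for 5 members in KO SH against WT SH (18.5% of all genes), 2 in KO MI against WT MI (6.47%), 4 in WT MI against WT SH (12.1%) and 3 in KO MI against KO SH (14.9%). The comparisons share groups, so they are not independent of each other.

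**Figure D2:**
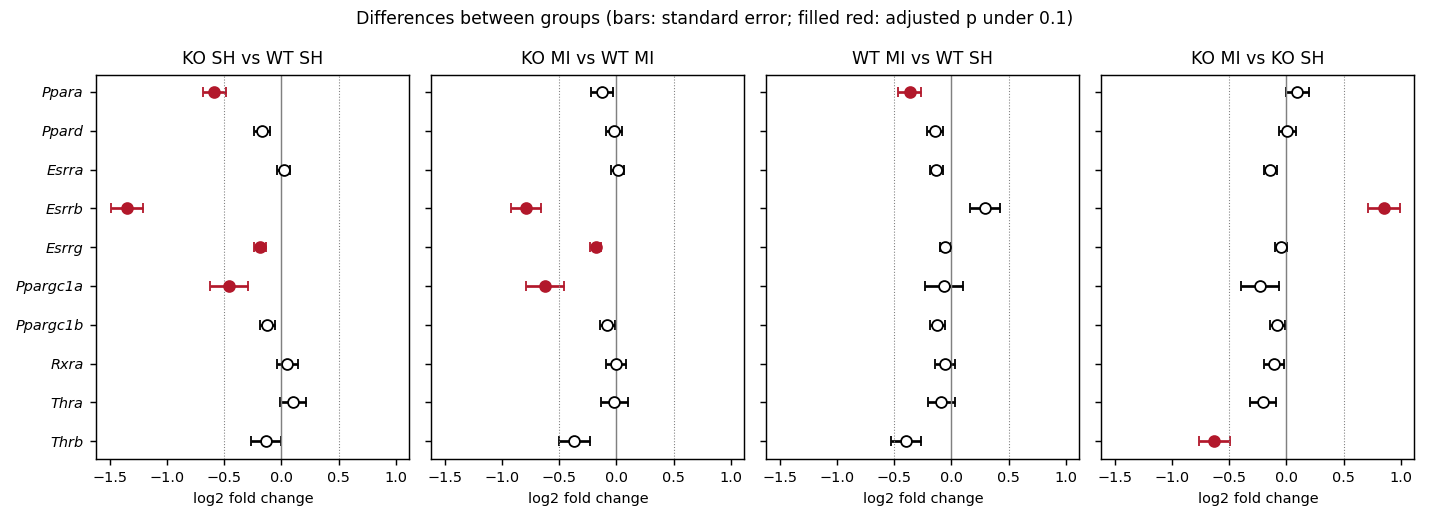
Log2 fold change of each member in the 4 comparisons between 2 groups, with its standard error as the bar. Filled red points have an adjusted p under 0.1 (edgeR, Benjamini-Hochberg), and dotted lines stand at −0.5 and 0.5. *Esrrb* has the largest change of the 10 in both comparisons of genotype.

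**Figure D3:**
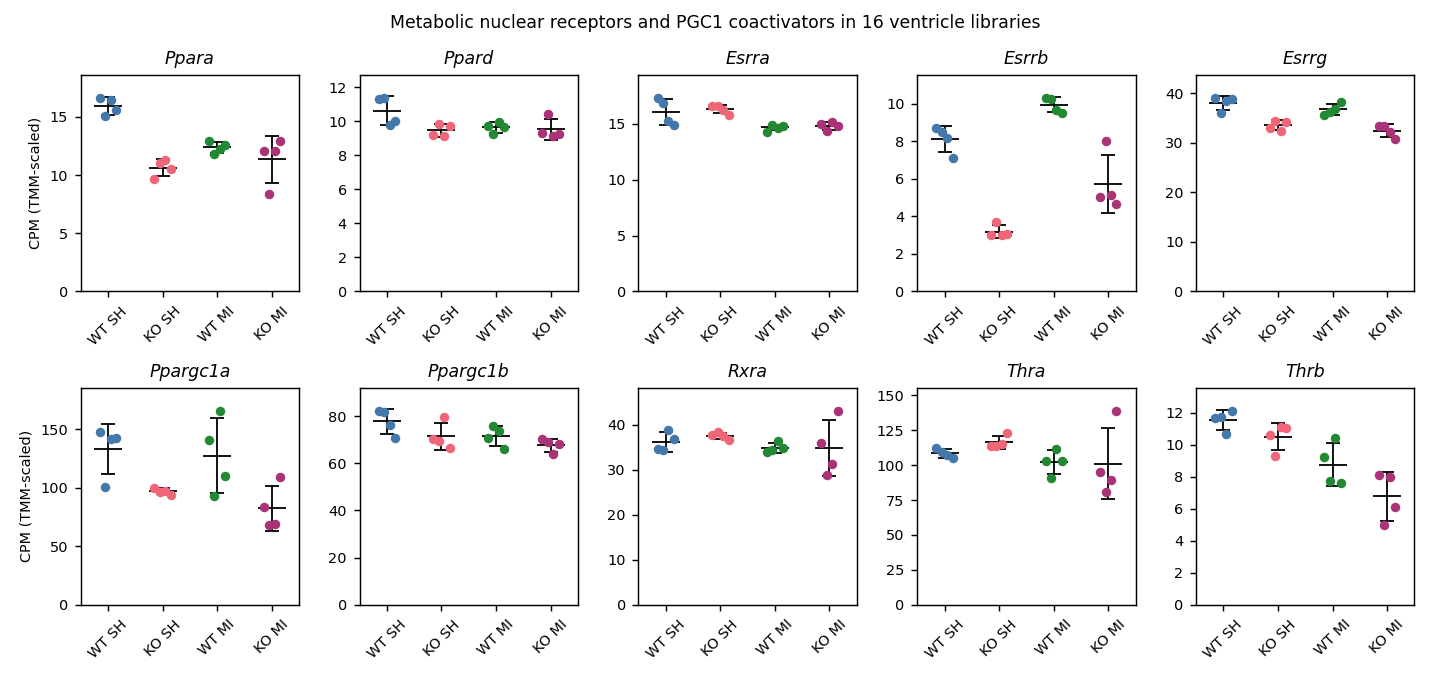
CPM of each member in every library (points, 4 per group), with the group mean and SD as black bars and each axis starting at 0. The 4 KO SH points of *Esrrb* and *Ppara* lie below all 4 WT SH points, and 1 KO MI library, replicate 2, lies above the other 3 for *Esrrb* and below them for *Ppara*.

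*Esrrb* encodes ERRβ, known from pluripotent cells, the placenta and the inner ear, and it was the member that differed most. The gene spans 86407887 to 86568409 on chromosome 12 (GRCm39, + strand). Its levels in WT SH were 8.73, 8.5, 8.15 and 7.11 CPM, and those in KO SH were 3, 3.7, 3 and 3.04 CPM. All KO SH libraries were thus below all WT SH libraries, with means of 8.12 ± 0.716 and 3.19 ± 0.343 CPM (SD, n = 4). On the log2 scale the change was −1.35 (standard error, SE, 0.141, adjusted p = 1.53e-05, edgeR with Benjamini-Hochberg adjustment), which ranked 25 of 20159 by p. The exact permutation test (two-sided) gave 0.0286, the smallest p that 4 libraries against 4 allow.

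In the infarcted hearts *Esrrb* was at 10.3, 10.2, 9.67 and 9.54 CPM in WT MI and at 5.04, 8.03, 5.17 and 4.68 CPM in KO MI. The groups did not overlap, and KO MI replicate 2, at 8.03 CPM, was well above the other 3. *Esrrb* was lower in KO MI by a log2 fold change of −0.79 (SE 0.133, adjusted p = 0.00354, edgeR with Benjamini-Hochberg adjustment; exact permutation p = 0.0286). It was higher in KO MI than in KO SH by 0.85 (SE 0.142, adjusted p = 0.00179), again without overlap. In WT hearts the 4 MI libraries were also all above the 4 SH libraries (9.94 ± 0.398 and 8.12 ± 0.716 CPM, SD, n = 4), but the change of 0.29 (95% interval 0.034 to 0.55) missed the threshold (adjusted p = 0.271, edgeR with Benjamini-Hochberg adjustment). The difference between the genotype effects, post-MI minus post-sham, was 0.56 (SE 0.193, unadjusted p = 0.00931, adjusted p = 0.226 in the same edgeR fit), so that the effects were not shown to differ. Without KO MI replicates 2 and 7 the genotype difference post-MI was −0.97 (adjusted p = 6.89e-05, edgeR).

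The promoters of *Esrrb* are shown because this gene changed most among the members, beside the first of the 2 *Thrb* promoters and that of the coactivator gene *Perm1*, shown because each holds a receptor half-site in this window. RefSeq (GRCm38.p6) gives promoters for 8 of the 10 members, 14 in all; *Thra* and *Ppargc1b* have no entry. Each line holds the 250 bases before a start site, 5′ to 3′ on the gene's strand, with capitals where the receptor half-site AGGTCA, or TGACCT as its reverse complement, was found. For *Esrrb* the windows are chr12:86360867-86361116 and chr12:86421394-86421643, for *Thrb* chr14:17660710-17660959 and for *Perm1* chr4:156215677-156215926, all on the + strand of that build (*Thrb* is on the other strand in GRCm39).
Esrrb first promoter: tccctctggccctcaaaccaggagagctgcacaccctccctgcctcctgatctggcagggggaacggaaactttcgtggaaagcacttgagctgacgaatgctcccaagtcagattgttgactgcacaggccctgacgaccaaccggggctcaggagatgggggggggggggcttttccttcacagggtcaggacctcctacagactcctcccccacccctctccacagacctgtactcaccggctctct
Esrrb second promoter: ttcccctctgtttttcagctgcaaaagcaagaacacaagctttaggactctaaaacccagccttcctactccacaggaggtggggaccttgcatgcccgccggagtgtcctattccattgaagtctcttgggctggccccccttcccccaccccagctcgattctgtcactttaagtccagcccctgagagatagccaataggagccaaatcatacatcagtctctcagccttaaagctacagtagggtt
Thrb first promoter: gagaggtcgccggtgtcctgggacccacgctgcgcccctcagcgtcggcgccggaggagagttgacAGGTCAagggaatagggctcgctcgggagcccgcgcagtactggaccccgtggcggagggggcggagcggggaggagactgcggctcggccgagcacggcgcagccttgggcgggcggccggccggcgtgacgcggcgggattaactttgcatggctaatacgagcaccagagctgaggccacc
Perm1 promoter: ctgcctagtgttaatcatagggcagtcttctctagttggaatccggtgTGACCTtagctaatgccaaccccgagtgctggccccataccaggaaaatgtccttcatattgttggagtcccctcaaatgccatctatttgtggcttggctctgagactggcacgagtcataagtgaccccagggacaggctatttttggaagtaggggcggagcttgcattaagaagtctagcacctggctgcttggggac
Both strands of the 300 bases from 250 before to 50 after each start site were searched. The half-site was in 16.3% of 32851 promoters, and TCAAGGTCA, the ERR element, which contains the half-site, in 0.423%. The half-site starts 184 bases before the *Thrb* start site and 202 bases before that of *Perm1*, and it occurs at 87 and 48 bases before the second *Rxra* start site. The other promoters of the members, with both *Esrrb* promoters and those of *Ppara*, *Ppargc1a* and *Esrrg*, hold neither run of letters in this window, which says nothing of binding there or elsewhere.

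*Esrrg* encodes ERRγ, the ERR tied to the oxidative program of the perinatal heart, and it changed little but steadily with genotype. In WT SH it was at 39.1, 36, 38.5 and 38.8 CPM and in KO SH at 32.9, 34.4, 32.4 and 34.2 CPM. In WT MI it was at 35.6, 36.2, 36.9 and 38.2 CPM and in KO MI at 33.4, 33.5, 32.1 and 30.6 CPM. KO libraries lay below WT libraries after either surgery, with exact permutation p = 0.0286 in each. The log2 fold changes were −0.19 (SE 0.0492, adjusted p = 0.0282) post-sham and −0.18 (SE 0.0491, adjusted p = 0.0726) post-MI, from edgeR with Benjamini-Hochberg adjustment. In the sham comparison this change depended on the scaling: set to cardiomyocyte genes, as described below, it was 0.039 (adjusted p = 0.731, edgeR). When each library was left out in turn, the post-MI call held in 3 of 8 fits, with adjusted p-values up to 0.236 (edgeR), and the sham call in 8 of 8.

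*Esrra*, which encodes ERRα, the ERR most studied with PGC1α in muscle, did not differ by genotype beyond its spread. Its levels ran from 14.3 to 17.3 CPM over the 16 libraries, and its log2 fold change was 0.019 in KO SH against WT SH (95% interval −0.094 to 0.13) and 0.013 in KO MI against WT MI (95% interval −0.10 to 0.13). All MI libraries of a genotype were below all SH libraries of that genotype (exact permutation p = 0.0286 in each). The changes with surgery, −0.13 in WT and −0.14 in KO hearts, missed the threshold (adjusted p = 0.251 and 0.126, edgeR with Benjamini-Hochberg adjustment). *Esrra* overlaps *Trmt112* on the opposite strand by 2511 bases. The library kit marks strand, but whether the counting used strand is not given in the sources used here.

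Known targets of the ERRs with PGC1, 18 genes mostly of the citrate cycle and the respiratory chain, had 9 of 18 called lower, 0 called higher and 0 DEGs in KO SH against WT SH. Their median log2 fold change was −0.28, beside 0.0053 for all genes, and 0 of the 18 were above 0. Also 0 of the 18 were above 0 in KO MI against WT MI (median −0.083) and in WT MI against WT SH (median −0.14). In KO MI against KO SH 8 were above 0 (median −0.0145). In the sham comparison the count called lower was 4 without WT SH replicate 1 and 5 without WT SH replicate 3 or KO SH replicate 1, 2 or 4. The lowest p was that of *Slc25a4*, the ADP/ATP carrier of heart mitochondria, at −0.36 (SE 0.0813, adjusted p = 0.0132, edgeR with Benjamini-Hochberg adjustment). *Cox7a1*, the muscle form of a cytochrome oxidase subunit, was at 25.3 to 29.6 CPM in WT SH and 17.9 to 20.1 CPM in KO SH, and at 21.2 to 25.1 CPM in WT MI and 11.8 to 21.2 CPM in KO MI. It was the one called gene of this list in KO MI against WT MI (−0.55, SE 0.12, adjusted p = 0.0227, edgeR). Infarction went with 0 called genes of the list in WT hearts (edgeR; 4 at an unadjusted p under 0.05, 0 called by DESeq2), where *Ndufs1*, a subunit of complex I, had the lowest p (−0.22, adjusted p = 0.166). In KO hearts it also went with 0 (1 at an unadjusted p under 0.05, 1 called by DESeq2), with the lowest p at *Sdhb*, a subunit of complex II (0.34, adjusted p = 0.1), while 7 were called higher without KO MI replicate 7 and 2 lower without KO MI replicate 1. In the sham comparison 8 cardiomyocyte markers had a like median, −0.26, and with the scaling set to cardiomyocyte genes the ERR list had 1 gene called higher and 0 lower, with a median of −0.041.

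*Ppara* encodes PPARα, the main receptor of the fatty acid oxidation genes in the heart. The gene spans 85618656 to 85687067 on chromosome 15 (GRCm39, + strand). In WT SH it was at 16.6, 15.1, 16.4 and 15.6 CPM and in KO SH at 9.63, 11, 11.3 and 10.5 CPM, with no overlap. On the log2 scale the change was −0.59 (SE 0.101, adjusted p = 0.00216, edgeR with Benjamini-Hochberg adjustment; exact permutation p = 0.0286). The call held in each of the 8 fits that left out 1 library, and with the scaling set to cardiomyocyte genes the change was −0.36, still called but under the size of a DEG. WT MI libraries, at 12.9, 11.8, 12.3 and 12.6 CPM, were all below WT SH libraries, by a log2 fold change of −0.36 (SE 0.0998, adjusted p = 0.0568). This call held in 3 of the 8 fits without 1 library, with adjusted p-values up to 0.153 (edgeR). Over 12 other settings of the analysis the change in WT MI against WT SH ran from −0.37 to −0.18.

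In KO MI *Ppara* was at 12.1, 8.39, 12 and 12.9 CPM, so that 3 libraries lay within or next to the WT MI range and replicate 2 was below all. On the log2 scale the change was −0.13 against WT MI (95% interval −0.32 to 0.071) and 0.096 against KO SH (95% interval −0.10 to 0.30). The genotype effect of *Ppara* thus was −0.59 post-sham and −0.13 post-MI, and the difference of the effects was 0.46 (SE 0.142, unadjusted p = 0.00465, adjusted p = 0.206 in the edgeR fit with Benjamini-Hochberg adjustment). In this interaction 0 members were called by edgeR, 2 had an unadjusted p under 0.05 (13.6% of all genes had) and DESeq2 called 1, *Ppara*; edgeR called 0.0248% of all genes. Without KO MI replicate 2 the *Ppara* difference was 0.58 (adjusted p = 0.0394, edgeR), so that 1 library decides whether it passes, and *Ppara* was then also called higher in KO MI than in KO SH (0.22, adjusted p = 0.0717). *Cdpf1* overlaps *Ppara* on the opposite strand by 3259 bases.

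*Ppard* encodes PPARδ, which shares many of these targets. It ran from 9.12 to 11.4 CPM, and its log2 fold changes lay between −0.17 (KO SH against WT SH, 95% interval −0.31 to −0.029, adjusted p = 0.163) and 0.01 (KO MI against KO SH), with none called by edgeR with Benjamini-Hochberg adjustment.

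The PPAR target genes, 28 genes of fatty acid uptake, storage and oxidation, were called in both directions in the sham hearts and in one direction in the infarcted KO hearts. In KO SH against WT SH, where *Ppara* was lower, 2 of the 28 were called higher and 4 lower. Their median was 0.0046 on the log2 scale. The count called higher was 1 without WT SH replicate 1, 2 or 4 or KO SH replicate 1, 2 or 3. *Fabp3*, the fatty acid binding protein of heart muscle, was lower (−0.43, SE 0.0906, adjusted p = 0.00853, edgeR with Benjamini-Hochberg adjustment), as were *Lpl*, *Cpt1b* and *Ucp2*. *Plin2*, a lipid droplet coat protein, was higher (0.42, SE 0.107, adjusted p = 0.0225, edgeR). These were named after their values were seen.

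In KO MI against WT MI, where *Ppara* itself was not called, 12 of the 28 PPAR target genes were called lower and 0 higher. The median was −0.28, and 26 of 28 were below 0. *Pdk4*, the kinase that holds back glucose oxidation, was at 299, 290, 350 and 368 CPM in WT MI and at 117, 162, 93.2 and 217 CPM in KO MI. All KO MI libraries were below WT MI libraries (−1.15, SE 0.222, adjusted p = 0.00952, edgeR with Benjamini-Hochberg adjustment). *Ucp3*, a mitochondrial carrier induced with fatty acids, was at 27, 24.5, 32.6 and 31.2 CPM in WT MI and at 13.2, 7.7, 8.33 and 26.4 CPM in KO MI, where replicate 7 lay within the WT MI range (−1.06, SE 0.272, adjusted p = 0.0537, edgeR; called in 3 of 8 fits without 1 library). The other 10 called genes, which include *Cpt2*, *Hadha*, *Hadhb*, *Acsl1* and *Plin5*, changed by less and were named after their values were seen. The count of called genes was 3 without WT MI replicate 4, 6 without WT MI replicate 3 or KO MI replicate 2, 7 without KO MI replicate 3 and 21 without KO MI replicate 7, and with only these 2 groups in the fit it was 1, while the median stayed between −0.30 and −0.23 when 1 library was left out.

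Infarction in WT hearts went with 1 PPAR target called higher and 1 lower of 28. The DEG was *Angptl4*, a secreted inhibitor of lipoprotein lipase, at 7.33 to 11.5 CPM in WT SH and 18.7 to 23.9 CPM in WT MI (1.20, SE 0.33, adjusted p = 0.0588, edgeR with Benjamini-Hochberg adjustment), a call kept in 2 of 8 fits without 1 library. In KO hearts 11 were called lower and 0 higher, with a median of −0.20, and without KO MI replicate 7 the count was 18. *Ucp3* was the DEG among these (−1.14, SE 0.273, adjusted p = 0.0127, edgeR).

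**Figure D4:**
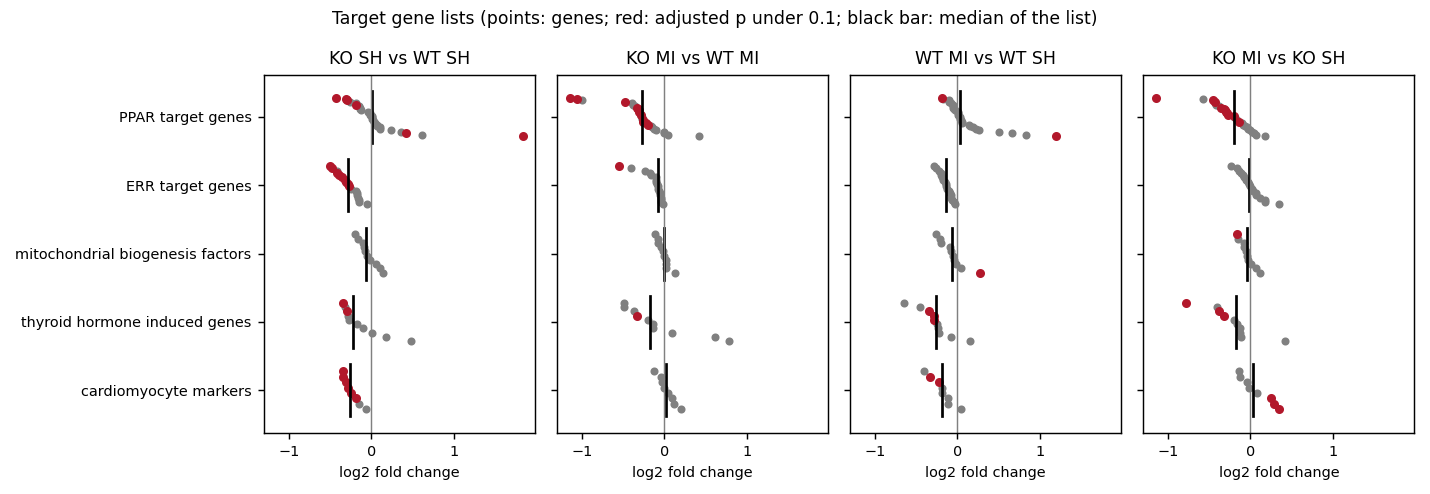
Log2 fold change of each gene of 4 target lists and of the cardiomyocyte markers in the 4 comparisons, with called genes in red and the list's median as a black bar. The ERR targets and the cardiomyocyte markers lie at or below 0 together in KO SH against WT SH. All ERR targets also lie below 0 in KO MI against WT MI and in WT MI against WT SH, with medians nearer 0. The PPAR targets lie mostly below 0 in KO MI against WT MI, where the cardiomyocyte markers lie around 0.

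*Ppargc1a* encodes PGC1α, the inducible coactivator of mitochondrial biogenesis, and it varied more among WT libraries than any other member. The gene spans 51611592 to 51725068 on chromosome 5 (GRCm39, − strand). In WT SH it was at 148, 101, 142 and 142 CPM and in KO SH at 99.9, 96.3, 97.4 and 93.8 CPM. The groups did not overlap, but WT SH replicate 2 lay close to the KO SH range. The log2 fold change of −0.46 (SE 0.164, adjusted p = 0.0986, edgeR with Benjamini-Hochberg adjustment; exact permutation p = 0.0286) is just past the threshold. The call held in 1 of 8 fits without 1 library.

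In WT MI *Ppargc1a* was at 141, 92.8, 165 and 110 CPM and in KO MI at 83.1, 68.4, 69.1 and 109 CPM. Here the groups overlapped, since KO MI replicate 7 was above WT MI replicate 2. On the log2 scale the change was −0.63 (SE 0.165, adjusted p = 0.0613, edgeR with Benjamini-Hochberg adjustment; exact permutation p = 0.0571). The call held in 4 of 8 fits without 1 library, and adjusted p was 0.00845 without KO MI replicate 7 and up to 0.22 otherwise. It was lost without WT MI replicate 1 or 3 and without KO MI replicate 2 or 3. With only these 2 groups in the fit adjusted p was 0.245. *Ppargc1a* was not called with surgery, with log2 fold changes of −0.065 in WT (95% interval −0.39 to 0.26) and −0.23 in KO hearts (95% interval −0.55 to 0.090).

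*Ppargc1b*, which encodes PGC1β, its constitutive relative, ran from 63.8 to 82.1 CPM and was called in none of the 4 comparisons by edgeR with Benjamini-Hochberg adjustment. Its log2 fold changes were −0.12 in KO SH against WT SH (95% interval −0.25 to 0.0046) and −0.078 in KO MI against WT MI (95% interval −0.21 to 0.048).

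*Perm1*, a muscle regulator that works with PGC1 and the ERRs, had the lowest p of the 12 other coactivators in both comparisons of genotype. It was at 93.8, 91.4, 88.4 and 82.9 CPM in WT SH and at 66.1, 65.9, 64.5 and 61.7 CPM in KO SH. On the log2 scale the change was −0.47 (SE 0.058, adjusted p = 0.000109, edgeR with Benjamini-Hochberg adjustment), with no overlap. In WT MI it was at 78.1, 76.1, 75.1 and 75 CPM and in KO MI at 65.6, 62.1, 60.4 and 53.3 CPM, again without overlap (−0.33, SE 0.0579, adjusted p = 0.00424, edgeR). WT MI was also below WT SH (−0.23, SE 0.0577, adjusted p = 0.0407, edgeR). Both genotype calls held in each of the 8 fits without 1 library. The call with infarction in WT hearts held in 5 of 8, with adjusted p-values up to 0.117 (edgeR), and was lost without WT SH replicate 1 or 2 or WT MI replicate 2. The coactivators had 2 of 12 genes called lower in KO SH against WT SH, the other being *Med1* (−0.15, adjusted p = 0.0455, edgeR; named after its value was seen), which was not called without WT SH replicate 3 or KO SH replicate 4, and 1 each in the other 3 comparisons. Without KO MI replicate 7, 5 were called lower and 2 higher in KO MI against KO SH.

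The one called coactivator between KO MI and KO SH was *Sirt1*, a deacetylase that acts on PGC1α, at −0.22 (adjusted p = 0.0193, edgeR with Benjamini-Hochberg adjustment). Of the 7 corepressors, *Nrip1*, which represses many of the same oxidative genes, was called lower in KO MI against WT MI (−0.22, SE 0.0472, adjusted p = 0.0208) and against KO SH (−0.21, SE 0.0473, adjusted p = 0.0101, edgeR). It was the one called in each. In KO SH against WT SH the corepressors had 0 called genes (edgeR; 0 at an unadjusted p under 0.05), with the lowest p at *Hdac3* (−0.090, adjusted p = 0.343), and in WT MI against WT SH also 0 (1 at an unadjusted p under 0.05), again with the lowest p at *Hdac3*, a histone deacetylase (−0.15, adjusted p = 0.168). Of the 10 nuclear factors of mitochondrial biogenesis, 0 were called in either comparison of genotype by edgeR (2 at an unadjusted p under 0.05 post-sham, 0 post-MI). *Nrf1*, the factor that switches on respiratory chain genes, was called higher in WT MI than in WT SH (0.27, SE 0.0599, adjusted p = 0.0221) and *Gabpa* lower in KO MI than in KO SH (−0.17, SE 0.0541, adjusted p = 0.0564, edgeR). The list had 0 genes called lower in that comparison without KO SH replicate 1, 2 or 4 or KO MI replicate 2 or 3, and 2 without KO MI replicate 7.

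*Thrb* encodes the thyroid hormone receptor β. The gene spans 4429815 to 4809435 on chromosome 14 (GRCm39, − strand). It was at 11.6, 11.7, 10.6 and 12.1 CPM in WT SH and at 10.6, 9.26, 11.1 and 11 CPM in KO SH, which overlapped (log2 fold change −0.13, 95% interval −0.39 to 0.12). In KO MI it was at 8.09, 4.96, 7.98 and 6.07 CPM, below all KO SH libraries. The change from KO SH was −0.63 (SE 0.134, adjusted p = 0.00704, edgeR with Benjamini-Hochberg adjustment; exact permutation p = 0.0286), and the call held in each of 8 fits without 1 library. Without KO MI replicates 2 and 7 it was −0.40 (SE 0.115, adjusted p = 0.0343, edgeR), still called but under the size of a DEG.

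In WT MI *Thrb* was at 9.25, 7.71, 10.4 and 7.62 CPM, all below WT SH libraries. The change of −0.40 (SE 0.132, 95% interval −0.66 to −0.14) missed the threshold (adjusted p = 0.118, edgeR with Benjamini-Hochberg adjustment), though the exact permutation p was 0.0286. KO MI overlapped WT MI (−0.37, 95% interval −0.63 to −0.10, adjusted p = 0.22, edgeR), and the difference between the genotype effects was −0.23 (95% interval −0.60 to 0.14).

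*Thra*, which encodes the thyroid hormone receptor α, the main form in heart muscle, was at 112, 110, 107 and 105 CPM in WT SH and at 114, 114, 115 and 122.8 CPM in KO SH. All KO SH libraries were thus slightly above all WT SH libraries (exact permutation p = 0.0286), while the edgeR fit did not call the log2 fold change of 0.099 (95% interval −0.13 to 0.32, adjusted p = 0.658). In WT MI it was at 103, 91, 111 and 103 CPM and in KO MI at 94.9, 81.1, 89.7 and 139 CPM. Replicate 7 was the highest of all 16 libraries and the other 3 KO MI libraries were below all KO SH libraries. KO MI against KO SH had a log2 fold change of −0.20 (adjusted p = 0.281), which was −0.39 (adjusted p = 0.000578, edgeR) without replicate 7, and the change from WT MI was then −0.21 (adjusted p = 0.0864). *Nr1d1*, which encodes the clock receptor REV-ERBα, overlaps *Thra* on the opposite strand by 3173 bases and was at 7.29 to 11.6 CPM.

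Genes under thyroid hormone control gave mixed changes. Of 10 genes that the hormone raises, 2 were called lower in KO SH against WT SH, 3 lower in WT MI against WT SH, 3 lower in KO MI against KO SH and 1 lower in KO MI against WT MI, and 0 were called higher in any. These counts moved with single libraries. The sham count was 0 without WT SH replicate 1 and 1 without KO SH replicate 1, and the WT infarction count was 0 without WT SH replicate 1 or 3 or WT MI replicate 2 and 1 without WT MI replicate 1, 3 or 4. Between KO MI and WT MI it was 0 without WT MI replicate 1 or 4 or KO MI replicate 2 and 4 without KO MI replicate 1, and between KO MI and KO SH it was 5 without KO MI replicate 1. *Myh6*, the adult myosin heavy chain, was lower in KO SH (−0.35, SE 0.0934, adjusted p = 0.0302) and in WT MI (−0.34, SE 0.0934, adjusted p = 0.056) than in WT SH (edgeR with Benjamini-Hochberg adjustment). *Hcn2*, a pacemaker channel, was at 10.8 to 12.2 CPM in KO SH and 9.25, 4.35, 8.77 and 4.9 CPM in KO MI (−0.78, SE 0.17, adjusted p = 0.00815, edgeR). *Me1*, the malic enzyme, had the lowest p of the list in KO MI against WT MI (−0.34, SE 0.0976, adjusted p = 0.0965, edgeR). With the scaling set to cardiomyocyte genes, the sham comparison had 2 of the 10 called higher and 0 lower. Over all genes it then had 6055 called higher and 426 lower.

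Of 5 genes that thyroid hormone lowers, 1 was called higher in KO SH, *Adcy5*, an adenylyl cyclase (0.15, adjusted p = 0.0978, edgeR), and 0 were called higher there without WT SH replicate 2 or 4 or any 1 KO SH library. Post-MI between genotypes 0 were called (edgeR; 2 at an unadjusted p under 0.05). *Pln*, the brake of the calcium pump of the sarcoplasmic reticulum, was lower in KO MI than in KO SH (−0.54, SE 0.0966, adjusted p = 0.0027). *Slc8a1*, the sodium-calcium exchanger, was higher (0.53, SE 0.0894, adjusted p = 0.00206, edgeR with Benjamini-Hochberg adjustment). *Dio2*, the deiodinase that makes active hormone inside cells, was at 9.04 to 10.9 CPM in WT SH and 4.37 to 5.7 CPM in KO SH (−0.89, SE 0.217, adjusted p = 0.0193, edgeR). It was at 7.04 to 19.2 CPM in KO MI, higher than in KO SH (1.23, SE 0.215, adjusted p = 0.00238, edgeR). *Dio2* was one of 4 genes of hormone supply tested of 7 listed, of which 0 were called in KO MI against WT MI and in WT MI against WT SH (edgeR; 1 each at an unadjusted p under 0.05).

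*Rxra*, which encodes RXRα, the partner that PPARs and thyroid hormone receptors need on DNA, ran from 28.9 to 43 CPM and was called in 0 of the 4 comparisons by edgeR with Benjamini-Hochberg adjustment. It differed by 0.053 in KO SH against WT SH (95% interval −0.12 to 0.23) and by −0.0052 in KO MI against WT MI (95% interval −0.18 to 0.17). KO MI replicate 7 had the highest and replicate 2 the lowest value of the 16. Without replicate 7, *Rxra* was lower in KO MI than in KO SH (−0.23, adjusted p = 0.0186, edgeR). Over the 16 libraries *Rxra* and *Thra* had the highest correlation of any 2 members (Pearson r = 0.851), which is a description, since the libraries share depth, scaling and groups.

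Another RXR, *Rxrg*, differed in the sham comparison, at 6.16 to 6.7 CPM in KO SH against 8.95 to 14 CPM in WT SH (−0.82, SE 0.256, adjusted p = 0.0591, edgeR with Benjamini-Hochberg adjustment). The level in KO MI was also below that in WT MI (−0.90, SE 0.261, adjusted p = 0.0991), and each of its calls held in 2 of 8 fits without 1 library. Of the 22 other nuclear receptors, 3 were called higher and 1 lower in KO SH, and *Vdr*, the vitamin D receptor, was among the DEGs that were higher (1.11, SE 0.271, adjusted p = 0.0193, edgeR). *Vdr* was at 0.257 to 0.374 CPM in WT SH and was also higher in WT MI (1.29, SE 0.267, adjusted p = 0.0148, edgeR). Infarction in KO hearts went with 6 of the 22 called lower and 0 higher, a count of 3 without KO MI replicate 2 and of 11 without KO MI replicate 7. The DEG was *Nr3c2*, the mineralocorticoid receptor, at 24.3 to 26.6 CPM in KO SH and 8.37 to 20.8 CPM in KO MI (−0.77, SE 0.166, adjusted p = 0.00775, edgeR).

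The share of cardiomyocyte RNA moved with the sham comparison. The summed level of 8 cardiomyocyte markers, led by *Ttn* and with none at 0, was 61400 ± 2530 CPM in WT SH, 52200 ± 670 in KO SH, 52900 ± 1230 in WT MI and 52200 ± 2110 in KO MI (SD, n = 4). In KO SH against WT SH 6 of the 8 markers were called lower and 0 higher, with a median of −0.26. The count was 2 without WT SH replicate 1 and 3 without KO SH replicate 1 or 2, with medians from −0.30 to −0.21 over the 8 fits without 1 library. In KO MI against WT MI 0 were called (edgeR), with a median of 0.018. Fewer cardiomyocytes and less RNA per cardiomyocyte cannot be told apart in bulk tissue. Scaling the libraries to cardiomyocyte genes moved the median of all genes by 0.226 in KO SH against WT SH and by −0.0243 in KO MI against WT MI. Under it *Esrrb* had log2 fold changes of −1.12 (adjusted p = 5.76e-05) and −0.82 (adjusted p = 0.00124), and *Ppara* was called in the sham comparison at −0.36, no longer as a DEG (adjusted p = 0.0415, edgeR with Benjamini-Hochberg adjustment). *Ppargc1a* lost its call post-sham (−0.23, adjusted p = 0.307) and kept it post-MI (−0.64, adjusted p = 0.0539, edgeR). *Esrra*, *Rxra* and *Thra* were then called higher in KO SH, at 0.25, 0.28 and 0.33. Over all genes tested, 6055 were called higher and 426 lower in KO SH against WT SH under this scaling.

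Markers of other cells moved with infarction and, in the infarcted hearts, with genotype. In KO MI against KO SH 6 of 8 macrophage markers, 7 of 7 erythroid markers, 4 of 8 fibroblast markers and 6 of 7 tested skeletal muscle markers were called higher, and 2 of 6 endothelial markers were called lower. In the same comparison 3 of 8 cardiomyocyte markers were called higher and 0 lower, with a median of 0.033. The macrophage sum was 56.6 ± 3.23 CPM in KO SH hearts, beside 80.9 ± 23.4 CPM in KO MI hearts, while the erythroid sum was 456 ± 37.2 and 802 ± 339 CPM (SD, n = 4). Between KO MI and WT MI, 4 of 7 tested skeletal muscle markers, with a median of 3.04, and 2 of 7 erythroid markers were called higher. In WT MI against WT SH 3 of 8 fibroblast markers were called higher, and 2 of 8 cardiomyocyte markers and 1 of 6 endothelial markers lower. That cardiomyocyte count was 0 without WT MI replicate 1, 1 without WT SH replicate 1, 2 or 3 or WT MI replicate 2 or 4, and 5 without WT SH replicate 4. Of 8 thymocyte markers 4 passed the filter, and of 7 adipocyte markers 1, *Cidea*, and 0 of these were called in any comparison by edgeR. Adipocyte markers below the filter stood out in KO MI replicate 7, which had 3.05 CPM of *Ucp1*, the uncoupling protein of brown fat, against 0.172 CPM or less in the other 15 libraries. It also had 0.669 CPM of *Plin1* and 0.375 CPM of *Adipoq*, against at most 0.0900 and 0.0215 CPM, and the highest adipocyte sum, 11.9 CPM. The same library had the highest *Thra* and *Rxra* of the 16 and the highest *Ppargc1a* and *Ucp3* of KO MI, and the part of fat tissue in these values was not tested. In KO SH against WT SH 2 macrophage, 1 erythroid and 1 fibroblast marker were called lower. Within KO MI the macrophage sum was highest in replicate 3 (114.8 CPM) and the erythroid sum in replicates 2 (1146 CPM) and 1 (957 CPM). In KO MI replicate 7 the erythroid sum was 354.7 CPM, below every KO SH library (416.9 CPM or more). The part of these cells in the changes of the members was not tested.

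The sex of the animals also moved with the sham comparison, since WT SH had 0 libraries with high *Xist* and the other groups 2 each. Among the 10 libraries with low *Xist*, *Esrrb* and *Ppara* differed in the sham comparison by log2 fold changes of −1.42 (adjusted p = 0.000116) and −0.54 (adjusted p = 0.00927, edgeR with Benjamini-Hochberg adjustment). This split holds 2 KO SH and 4 WT SH libraries, and the part of sex in these differences was not tested. *Esrrg* and *Ppargc1a* had −0.19 and −0.47 there, with adjusted p = 0.189 and 0.2. In KO MI against WT MI *Esrrb* had −1.02 (adjusted p = 0.00457) among the low-*Xist* libraries and −0.60 (adjusted p = 0.481) among the 4 with high *Xist*, and *Ppargc1a* had −0.78 and −0.42 (adjusted p = 0.155 and 0.348, edgeR). With *Xist* as a covariate *Ppargc1a* was not called in KO SH (−0.27, adjusted p = 0.357), and *Ppara* was not called in WT MI against WT SH (−0.28, adjusted p = 0.222).

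**Figure D5:**
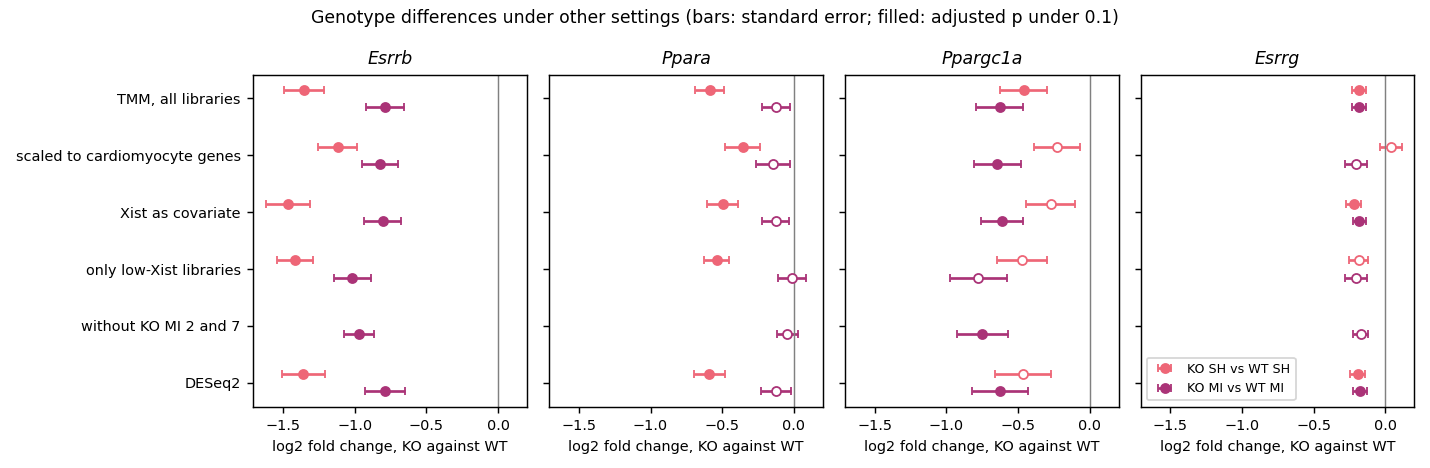
Log2 fold change of *Esrrb*, *Ppara*, *Ppargc1a* and *Esrrg* in both comparisons of genotype under 6 settings, with standard errors as bars and filled points for an adjusted p under 0.1. *Esrrb* lies below 0 in every setting shown, for both comparisons, and the sham value of *Esrrg* moves to the other side of 0 when libraries are scaled to cardiomyocyte genes.

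The genes whose levels most resembled those of the called members were found by Pearson correlation over the 16 libraries, among 11950 genes with a mean of at least 1 CPM. For *Esrrb* they were *Hjurp*, a centromere chaperone (r = 0.956), *Uggt2*, a glycoprotein folding sensor (r = 0.954), and *Aspn*, a matrix proteoglycan (r = 0.95). For *Ppara* they were *Ltbp1*, a TGFβ binding protein (r = 0.883), *Lpin3*, a lipin phosphatase (0.878), and *Plekhm2* (0.877), and for *Esrrg* they were *Apold1* (0.926), *Otud6b* (0.919) and *Noct* (0.915). For *Ppargc1a* they were *Zbtb40* (0.934), *Ndufa3*, a complex I subunit (0.873), and *Peli2* (0.86). For *Thrb* they were *Astn1* (0.97), *Ky* (0.932) and *Hcn2* (0.929). *Hjurp* was picked by this correlation, so that changes like those of *Esrrb* follow from the choice. Its log2 fold changes were −1.12 in KO SH against WT SH, −0.87 in KO MI against WT MI and 0.49 in KO MI against KO SH. In WT MI against WT SH *Hjurp* was called (0.24, adjusted p = 0.074, edgeR with Benjamini-Hochberg adjustment), where *Esrrb* was not. These likenesses follow the same 4 groups.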

How the data were processed

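The 16 strand-marked total RNA libraries of ventricles were sequenced, and the deposited table held the authors' RSEM expected counts per gene and library, not normalised. The study's methods name Skewer, STAR, RSEM and GRCm39, whereas the submitters' processing notes name bcl2fastq 2.17, cutadapt 3.4, HISAT2 2.2.1 and RSEM 1.1.17. Which of these made the table, the annotation release and whether counting used strand are not given in the sources used here. The estimated counts split reads between alike genes by a model. Mitochondrially encoded genes took 38.1 to 47.8% of each deposited library, and this share differed by group. It was 45.5 to 46.7% in WT SH, 46.8 to 47.8% in KO SH, 43.5 to 44.2% in WT MI and 38.1 to 45% in KO MI.

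Identifiers were matched to symbols through GENCODE M39 (47772 of 51912 matched; the rest held 0.57 to 0.786% of counts). Expected counts were rounded to whole numbers. The 20159 genes whose counts summed to 10 or more in every group were scaled by TMM and tested with edgeR 4.0.16 (quasi-likelihood F-test, R 4.3.3) on all 16 libraries with 1 coefficient per group, with Benjamini-Hochberg adjustment over all genes tested. A gene was called at an adjusted p under 0.1 and was a DEG if it also moved by 0.5 or more on the log2 scale, either way. The script was tested on simulated data. Single members were also compared by an exact two-sided permutation test of log2(CPM + 0.05) over 70 splits. The floor of 3 counts covers counting error only. The labels do not say that each library came from a separate animal, so p-values measure the spread between libraries.

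The members and gene lists (other coactivators, corepressors, other nuclear receptors, targets of PPARs and ERRs, biogenesis factors, genes of thyroid hormone action, cell type markers) were chosen with earlier results of these data known. Named from each list were its DEGs, at most 5 or the 3 largest changes, or, with none, the gene of lowest p, and for each called member the 3 most correlated genes. Some genes of these lists are counted but not reported here by name. Alternatives were DESeq2 1.42.0 and its size factors, other filters, fits with 2 groups, a replicate block, a robust fit, removal of mitochondrially encoded genes, scaling to cardiomyocyte genes, *Xist* as a covariate, a stricter threshold of 0.05 and leaving out each library or KO MI replicates 2 and 7 together. Fits of low-*Xist* or high-*Xist* libraries alone (split at 100 CPM) were added after seeing the data.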

Additional observations from a re-analysis of the deposited data

Results flagged for a closer look

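Among 40 group values of the 10 members, 5 had a library far from the other 3 of its group by Dixon's ratio for groups of 4, a rule by which chance picks out about 1 in 20 groups. In KO MI, replicate 2 had the highest *Ppard*, at 10.45 CPM beside 9.332 CPM for the next library, and the highest *Esrrb*, at 8.032 CPM beside 5.165 CPM. This library also had raised skeletal muscle markers, whose part in these values was not tested. In KO SH, replicate 2 had the highest *Esrrb*, at 3.7 CPM beside 3.043 CPM, still below every WT SH library. *Ppargc1a* in WT SH replicate 2 was at 100.9 CPM beside 141.5 CPM for the next. *Thra* in KO SH replicate 4 was at 122.8 CPM beside 114.9 CPM.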

How the results depend on the processing

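Over the alternatives that kept all replicates or changed more than 1, 560 of 640 values of single members kept their direction and their side of the threshold, 27 lost a call, 17 gained one and 36 changed sign, 0 of these with an adjusted p under 0.1. *Esrrb* was called in 12 of 12 such settings in KO SH against WT SH, in 13 of 14 in KO MI against WT MI and in 13 of 14 in KO MI against KO SH. *Ppara* was called in 12 of 12 in the sham comparison, *Esrrg* in 10 of 12 and *Ppargc1a* in 7 of 12. Post-MI between genotypes *Ppargc1a* was called in 10 of 14 and *Esrrg* in 7 of 14. *Ppara* was called in 9 of 12 in WT MI against WT SH, and *Thrb* in 13 of 14 in KO MI against KO SH. These counts per gene took an adjusted p under 0.1 as a call in every setting, also in that of the stricter threshold, 0.05. At 0.05 the main fit did not call *Ppargc1a* in either comparison of genotype, *Esrrg* post-MI or *Ppara* in WT MI against WT SH. For these the counts thus include a setting in which the call was lost. The cause of the changes below was not tested.

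The count of called members was 4 in KO SH against WT SH and 2 with low-*Xist* libraries alone. In KO MI against WT MI it was 3, and 1 with only these 2 groups in the fit, at an adjusted p under 0.05 or with low-*Xist* libraries, and 0 with high-*Xist* libraries. In WT MI against WT SH it was 1, and 2 by DESeq2, 3 with only 2 groups, and 0 with *Xist* as a covariate, at an adjusted p under 0.05 or with low-*Xist* libraries. Over all genes that comparison had 1526 called by DESeq2 and 1564 with only 2 groups, against 1071 in the main fit. In KO MI against KO SH the count of called members was 2, and 0 with high-*Xist* libraries. For the interaction it was 0, and 1 by DESeq2 and 1 without KO MI replicates 2 and 7. Leaving out 1 library gave 3 to 4, 1 to 4, 0 to 1, 2 to 5 and 0 to 2 called members in these 5 comparisons.

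No pairing of the samples by replicate number was seen in correlations of the libraries' deviations from their group means. Of 21 same-numbered pairs, 1 correlated above 0.1 (−0.0623 to 0.112), and 4 of 15 libraries correlated best with their own number. This check cannot exclude a weaker pairing. A replicate block gave 2 called members in WT MI against WT SH, 5 in KO MI against KO SH and 2 in the interaction, and *Esrra* in KO MI against WT MI was −0.0022. Over all genes it called 878 higher and 605 lower in the interaction, against 5 in all without it. In KO MI against KO SH it called 2774 higher and 2302 lower (3536 in all without it). The counts were 445 and 663 in KO MI against WT MI (619 in all without it) and 903 and 753 in WT MI against WT SH (1071 in all without it).

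Scaled to cardiomyocyte genes, signs turned in KO SH against WT SH for *Ppard* (0.063), *Esrrg* (0.039), *Ppargc1b* (0.11) and *Thrb* (0.089), and in KO MI against WT MI for *Esrra* (−0.011). In WT MI against WT SH they turned for *Ppard* (0.040), *Esrra* (0.049), *Esrrg* (0.12), *Ppargc1a* (0.11), *Ppargc1b* (0.059), *Rxra* (0.12) and *Thra* (0.090), in KO MI against KO SH for *Ppard* (−0.066), and in the interaction for *Ppard* (−0.11), *Esrrg* (−0.25) and *Ppargc1b* (−0.21). The calls of all genes in KO SH against WT SH were then 6055 higher and 426 lower, against 1030 and 1456 with TMM, in WT MI against WT SH 2404 and 92, against 626 and 445, and in KO MI against KO SH 1109 and 1391, against 2061 and 1475.

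With *Xist* as a covariate, *Ppargc1a* (0.086) and *Thra* (0.046) turned in WT MI against WT SH and *Esrra* (0.0092) in the interaction. The interaction also turned for *Esrra* by DESeq2 (0.00077) and without KO MI replicates 2 and 7 (0.0018), and for *Esrrg* with no filter (−0.0018). *Ppard* in KO MI against KO SH was −0.047 without replicates 2 and 7. With low-*Xist* libraries, signs turned for *Rxra* (0.082) and *Thra* (0.093) in KO MI against WT MI, *Ppargc1a* (0.20) in WT MI against WT SH, *Ppard* (−0.041) and *Rxra* (0.0021) in KO MI against KO SH, and *Esrra* (0.047), *Esrrg* (−0.019), *Ppargc1b* (−0.050) and *Rxra* (0.039) in the interaction. With high-*Xist* libraries they turned for *Ppard* (0.064) and *Esrra* (−0.022) in KO MI against WT MI and *Ppara* (−0.0088) in KO MI against KO SH.

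With 1 library left out, 30 of 480 values changed sign, 0 with an adjusted p under 0.1. These ran for *Esrra* in KO SH against WT SH from −0.014 to 0.060, in KO MI against WT MI for *Rxra* from −0.12 to 0.073, *Thra* from −0.21 to 0.075 and *Ppard* from −0.065 to 0.0038, for *Ppargc1a* in WT MI against WT SH from −0.22 to 0.059, for *Ppard* in KO MI against KO SH from −0.038 to 0.031, and in the interaction for *Esrra* from −0.047 to 0.027, *Esrrg* from −0.018 to 0.031 and *Rxra* from −0.18 to 0.020. With only 2 groups in the fit, 255 genes were called in KO MI against WT MI (619 with every library), 3733 in KO SH against WT SH (2486) and 2233 in KO MI against KO SH (3536). The interaction, with 5 called genes, had 571 by DESeq2, 41 with no filter, 8 with the robust fit, 1175 with cardiomyocyte scaling, 19 with *Xist* as a covariate and 804 without KO MI replicates 2 and 7. *Xist* as a covariate gave 628 called genes in WT MI against WT SH. Low-*Xist* libraries gave 713, 158, 272, 758 and 0 called genes in the 5 comparisons, and high-*Xist* libraries 91 in KO MI against WT MI and 5 in KO MI against KO SH. Leaving out 1 library gave 1396 to 2833 called genes in KO SH against WT SH, 348 to 1231 in KO MI against WT MI, 461 to 1286 in WT MI against WT SH, 1907 to 5597 in KO MI against KO SH and 2 to 1816 in the interaction.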
